A study of Mus musculus with 21 samples.

Results

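Serotonin neurons are defined by a small set of genes that make, carry and break down the transmitter, and 7 of them were followed here in neurons grown from mouse embryonic stem (ES) cells: Tph1, Tph2, Ddc, Slc6a4, Slc18a2, Maoa and Maob. The 7 genes were taken by symbol out of 18193 genes with a probe set that names exactly 1 gene. They had 9 probe sets, since Ddc and Maoa had 2 each. Every gene was represented by its probe set whose values spread most (by SD) across the 21 arrays, and the other probe sets of Ddc and Maoa served as a check.

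The series compared post-mitotic neurons purified from wild type ES cells and from ES lines in which a nestin enhancer (NesE), active in neural progenitors, drove a transcription factor, on Affymetrix arrays, with 3 arrays in each of 7 groups. The NesE-Nkx2.2 line was labelled serotonergic and was differentiated for 10 days, either with Sonic hedgehog (SHH) and FGF8, labelled rostral hindbrain, or with SHH and retinoic acid (RA), labelled caudal hindbrain. The NesE-Lmx1a line, labelled dopaminergic, had SHH and FGF8 for 10 or 14 days, and the NesE-Olig2 line, labelled somatic motor neurons, had SHH and RA for 8 days. Wild type neurons had FGF8 for 10 days, labelled dorsal midbrain, or RA for 8 days, labelled dorsal hindbrain. The titles of the wild type samples also name SHH while their source names do not. Without SHH in the wild type cultures, every comparison with wild type would differ in line and in SHH together, and these cannot be told apart. The days also differ between the Nkx2.2 RA group and the 2 groups at day 8. Titles call the 3 arrays of a group biological replicates, and nothing used here says more of their origin, so p-values measure the spread between these arrays. Each engineered group came from the line its label names; the number of clones behind a line is not stated.

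Serotonin is made from tryptophan in 2 steps. Tryptophan hydroxylase, encoded by Tph2 in brain neurons and by Tph1 mainly in the gut and the pineal gland, carries out the rate-limiting hydroxylation with tetrahydrobiopterin as cofactor, and aromatic amino acid decarboxylase, encoded by Ddc, removes the carboxyl group. Ddc also serves dopamine synthesis, so it is shared with dopamine neurons. The vesicular carrier VMAT2, encoded by Slc18a2, loads monoamines of all kinds into vesicles, and the serotonin transporter, encoded by Slc6a4, takes serotonin back up from outside the cell. Monoamine oxidases A and B, encoded by Maoa and Maob, degrade it. In the adult brain Maob is known from serotonin neurons and from astrocytes.

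The deposited values are log2 signals, and each probe set was centred on its own median over 27 arrays. A value of 0 is therefore the median of that probe set and not an absent transcript, and values can be compared between arrays but not between genes. The labelling controls, spiked-in bacterial transcripts, were low on all 3 Lmx1a day 10 arrays, at -3.83, -3.68 and -3.75, and lay between -1.80 and 2.03 elsewhere. The bioC hybridization control split the arrays into 9 with a signal of -2.75 to -1.27 and 12 with a signal of -0.15 to 0.65. All 9 arrays of the Nkx2.2 groups and the wild type RA group were among the 12, all 3 Lmx1a day 10 arrays were among the 9, and the other 3 groups had 2 arrays among the 9 and 1 among the 12. No batch is labelled, and the split is known only from the bioC control probe sets. The other hybridization controls, bioB, bioD and cre, did not divide the arrays this way. Their mean was -2.46 on Lmx1a day 10 replicate 1 and lay between -0.24 and 0.50 on every other array. Markers of the labelled cell types had their highest group means where the labels place them: the list of 8 dopaminergic genes at 3.01 and 3.79 in the Lmx1a groups and the list of 5 motor neuron genes at 4.42 in the Olig2 group. The dopaminergic list includes Lmx1a, the factor driven in that line. Its Slc6a3 and Pitx3 differed by only 0.05 and 0.07 between Lmx1a day 10 and wild type FGF8. Nkx2-2 itself averaged 0.72 ± 0.52 and 1.64 ± 0.20 (SD, n = 3) in the Nkx2.2 groups with FGF8 and RA, and -0.03 or lower in every other group. The list of 6 serotonergic transcription factors, which includes Nkx2-2, stood at 1.80 in the Nkx2.2 FGF8 group and 1.49 in the Nkx2.2 RA group. It stood at 0.41 or lower in the other groups. Between the Nkx2.2 line and wild type, its Lmx1b and Insm1 differed by only 0.50 and 0.26 with FGF8, and its Gata3 by 0.62 with RA. Its Foxa2 was also higher in Lmx1a day 10 than in wild type FGF8, by 5.15. These are bulk samples, in which fewer cells of a type and less RNA per cell cannot be told apart.

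Tph2, Slc6a4 and Slc18a2 are the genes that the Nkx2.2 arrays shared most clearly among those with a promoter entry, and the 250 bases before their start sites are printed for that reason, from RefSeq on GRCm38.p6, 5′ to 3′ on the strand of the gene. Entries matched 6 of the 7 genes, all but Maob. Capitals mark matches on either strand to 6 short motifs: AGATAA, which GATA factors bind, CGGAA, the core of ETS factor sites, AAGTG, bound by NK2 homeodomain factors such as Nkx2-2, TTAATTA, a site of LIM homeodomain factors, TATAAA, the TATA box, and TGACG, the core of the cyclic AMP response element.
Tph2, chr10:115185023-115185272, minus strand: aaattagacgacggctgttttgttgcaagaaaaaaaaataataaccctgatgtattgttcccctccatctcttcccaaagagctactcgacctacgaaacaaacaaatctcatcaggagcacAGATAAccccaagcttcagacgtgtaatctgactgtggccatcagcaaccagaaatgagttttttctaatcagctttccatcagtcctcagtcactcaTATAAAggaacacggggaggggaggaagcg
Slc6a4, chr11:76998347-76998596, plus strand: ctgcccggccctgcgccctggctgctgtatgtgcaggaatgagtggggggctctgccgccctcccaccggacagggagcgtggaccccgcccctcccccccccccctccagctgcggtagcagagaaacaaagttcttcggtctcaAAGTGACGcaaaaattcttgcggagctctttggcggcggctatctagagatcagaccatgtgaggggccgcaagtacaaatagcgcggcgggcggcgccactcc
Slc18a2, chr19:59260628-59260877, plus strand: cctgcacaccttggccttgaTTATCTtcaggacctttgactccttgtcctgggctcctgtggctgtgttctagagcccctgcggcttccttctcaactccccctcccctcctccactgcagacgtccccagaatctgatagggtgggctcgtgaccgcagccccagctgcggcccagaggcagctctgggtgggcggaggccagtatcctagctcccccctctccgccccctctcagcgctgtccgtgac
Counted from the start site to the first printed base of a match, the Tph2 stretch held AGATAA at -128 and TATAAA at -30. The Slc6a4 stretch held AAGTG at -104 and, overlapping it, TGACG at -101. The Slc18a2 stretch held AGATAA at -230 on the opposite strand. Of 32851 upstream stretches of the same length, 9.99% held AGATAA, 40.7% AAGTG, 12.4% TATAAA and 17.8% TGACG on either strand, and 25.2% held CGGAA and 2.78% TTAATTA, which none of the 3 stretches held. No motif of the 6 was found in all 3 stretches. They also differed in base composition: GC made up 43.6% of the Tph2 stretch, 64.8% of the Slc6a4 stretch and 64% of the Slc18a2 stretch, against a median of 52.4% over all stretches. A match describes these letters only.

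Tph2, the tryptophan hydroxylase of brain neurons, read 5.85, 6.40 and 4.48 on the arrays of the Nkx2.2 FGF8 group, in the order of replicates 1 to 3, and 4.32, 4.62 and 4.36 in the Nkx2.2 RA group. Every other array was at 2.27 or lower. The Lmx1a arrays read 1.16, 0.25 and -2.20 at day 10 and 2.27, 0.00 and 1.34 at day 14. The Olig2 arrays read -2.74, -1.95 and -2.49, the wild type FGF8 arrays -2.0, 1.13 and -3.97, and the wild type RA arrays -2.52, -1.97 and -3.26. The 2 Nkx2.2 groups overlapped each other and stood clear of the rest, and below them each group overlapped the next in the order of means, from Lmx1a day 14 down to wild type RA. The wild type FGF8 group spread widely, at -1.61 ± 2.57 (mean ± SD, n = 3), because its replicate 2 lay above the others.

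Tph1, the hydroxylase of the gut and pineal gland, hardly varied. Its values ran from -0.045 to 0.40 over the 21 arrays, a range of 0.45, and its SD stood at percentile 24.5 among all genes, while those of the other 6 genes stood at percentile 98.0 or above. The highest value, 0.40, was on replicate 2 of the Nkx2.2 FGF8 group, whose other arrays read 0.085 and -0.015. Tph1 and Tph2 thus differed in how far they ranged over the same arrays, although a low range on centred values does not show whether Tph1 was expressed.

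Ddc, the decarboxylase shared by serotonin and dopamine synthesis, was high in both engineered monoamine lines. Its arrays read 3.79, 4.16 and 2.92 in the Nkx2.2 FGF8 group and 2.18, 2.26 and 1.50 in the Nkx2.2 RA group. They read 1.30, 1.20 and 0.00 in the Lmx1a line at day 10 and 2.63, 2.61 and 2.2 at day 14. The Lmx1a day 14 arrays thus overlapped those of the Nkx2.2 RA group, with means of 2.48 ± 0.24 and 1.98 ± 0.42 (n = 3 each). The other arrays were all below these 12: -2.97, -2.62 and -4.50 in the Olig2 group, -3.07, -0.92 and -3.43 in wild type FGF8 and -4.61, -4.78 and -6.50 in wild type RA. In the order of means, overlap between neighbours was seen only between Lmx1a day 14 and Nkx2.2 RA and between wild type FGF8 and Olig2.

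Slc6a4, the serotonin transporter, had the widest range of the 7 genes, 11.2 log2 units. It read 7.39, 7.67 and 5.06 in the Nkx2.2 FGF8 group and 6.31, 6.67 and 6.33 in the Nkx2.2 RA group. The Lmx1a arrays read -0.06, 0.93 and -2.82 at day 10 and 2.48, 0.41 and 1.90 at day 14. The Olig2 arrays, at -3.09, -3.09 and -3.49, were among the lowest, and the wild type arrays read -2.74, 2.07 and -3.12 with FGF8 and 0.00, -0.04 and -2.0 with RA. The lowest Nkx2.2 array lay 2.58 above the highest other array. Below the Nkx2.2 groups, each group overlapped the next.

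Slc18a2, the vesicular monoamine carrier, formed 3 tiers. The Nkx2.2 arrays were highest, at 4.47, 4.42 and 3.29 with FGF8 and 4.11, 4.22 and 4.13 with RA. The Lmx1a arrays lay in between, at 0.78, 0.38 and 0.44 on day 10 and 1.80, 1.43 and 1.79 on day 14. The Olig2 arrays read -1.02, -1.32 and -1.79, the wild type FGF8 arrays -1.13, 0.00 and -1.33 and the wild type RA arrays -1.72, -1.45 and -1.26. The 2 Lmx1a groups did not overlap each other or any other group, whereas the Olig2 and wild type groups overlapped.

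Maob, monoamine oxidase B, was high in the Nkx2.2 groups and at its median elsewhere. It read 6.80, 5.64 and 4.63 with FGF8 and 6.52, 6.52 and 6.03 with RA, while the 15 other arrays lay between -0.049 and 0.10. This left a gap of 4.53 between the lowest Nkx2.2 array and the highest other array, the widest gap among the 7 genes. The spread within groups was as uneven: the SD was 1.09 in the Nkx2.2 FGF8 group and at most 0.054 in each of the 5 groups outside the Nkx2.2 line.

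Maoa, monoamine oxidase A, differed less between groups. Its chosen probe set read 2.38, 2.30 and 1.25 in the Nkx2.2 FGF8 group and 1.66, 3.12 and 2.63 in the Nkx2.2 RA group. The Lmx1a arrays read 0.64, -1.09 and -0.78 at day 10 and 1.49, 1.23 and -0.32 at day 14. The Olig2 arrays read 0.10, -1.35 and -1.83, the wild type FGF8 arrays -0.20, 0.00 and -0.16 and the wild type RA arrays -3.45, -3.01 and -1.16. In the order of means every group overlapped the next, and the lowest Nkx2.2 array was 0.23 below the highest Lmx1a day 14 array.

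**Figure D1:**
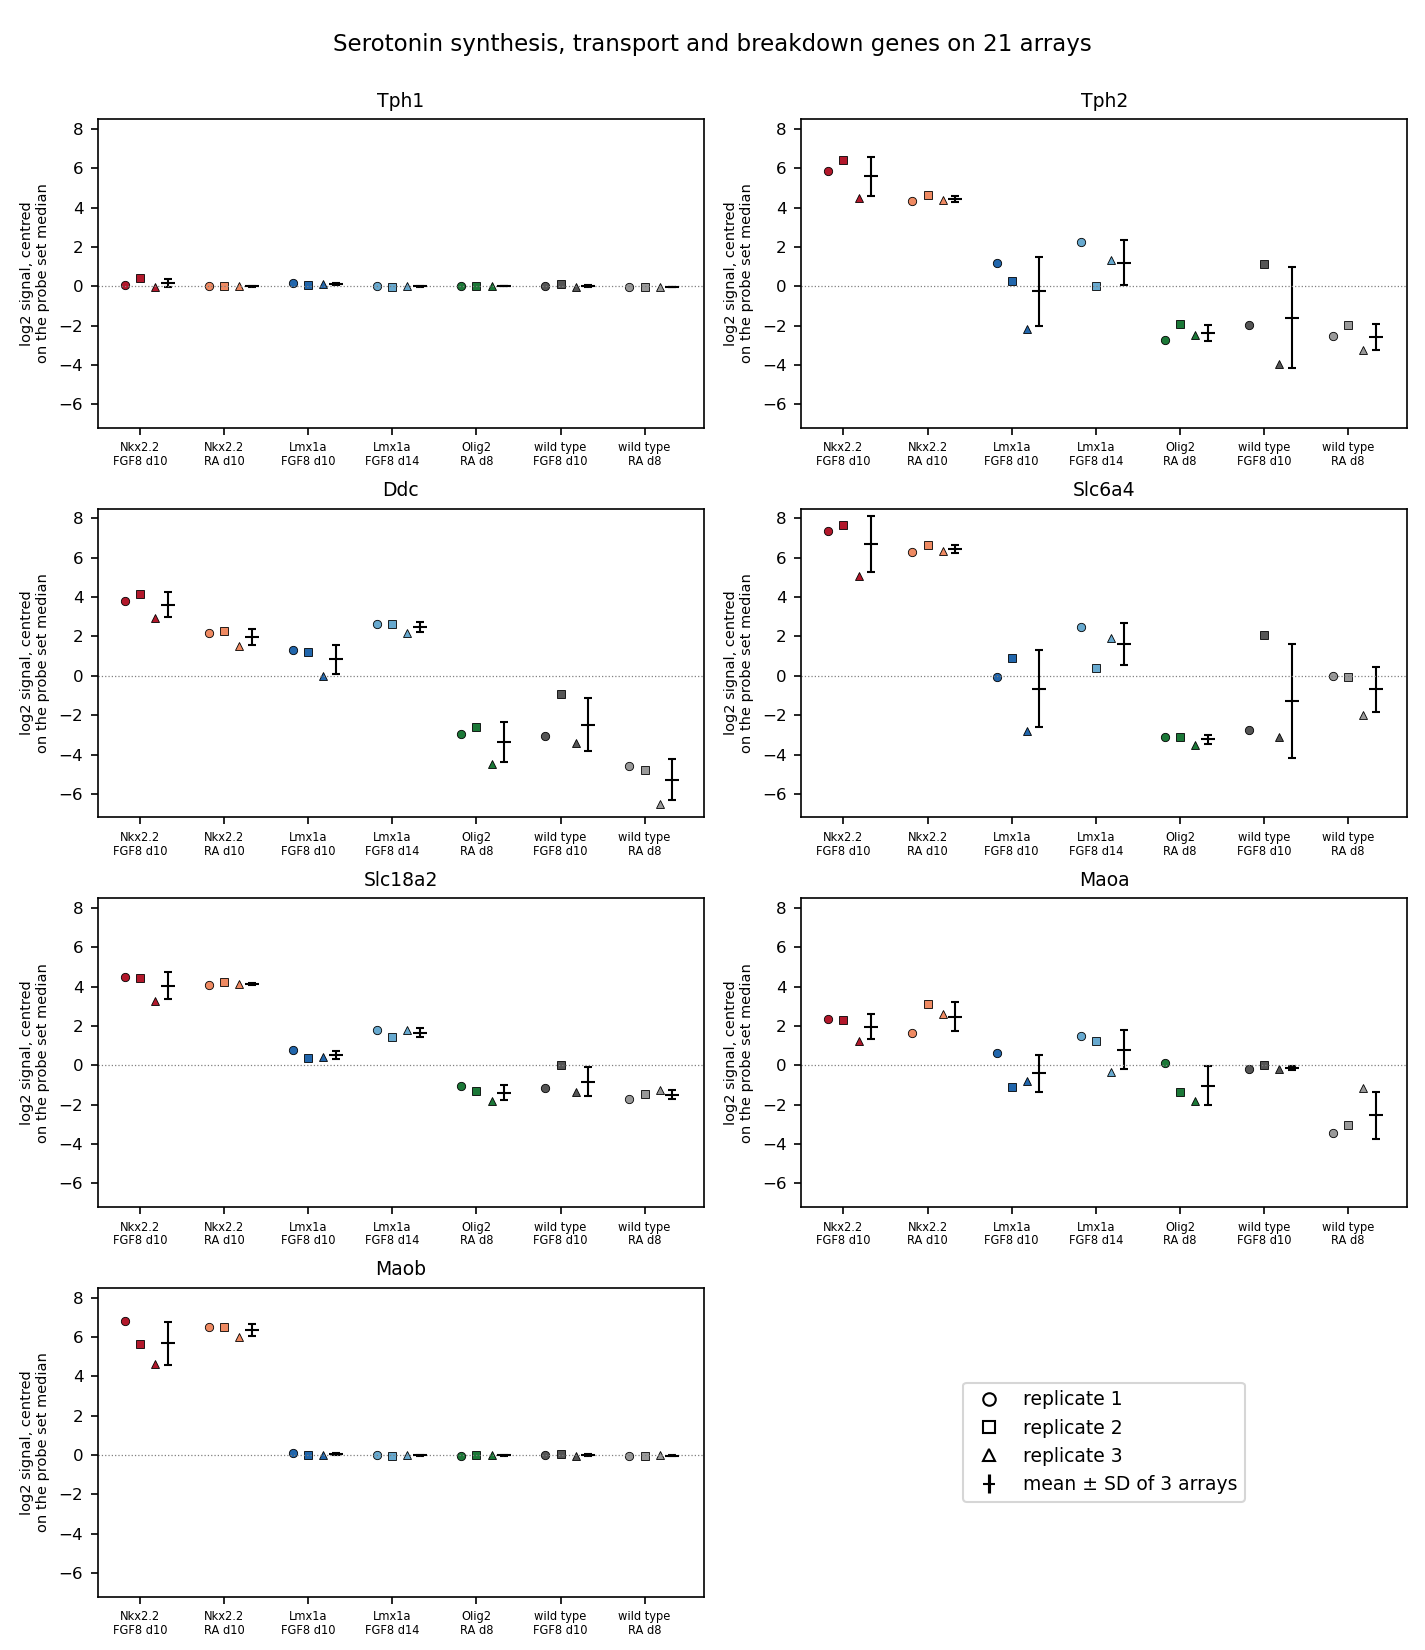
Centred log2 signal (y axis) of the 7 genes in the 7 groups (x axis), 1 point per array with the replicate as the symbol, and the mean with its SD beside it (n = 3). Tph2, Slc6a4, Slc18a2 and Maob have all 6 Nkx2.2 arrays above all 15 others, Ddc is high in the Nkx2.2 and Lmx1a lines, and Tph1 stays within 0.45 log2 units.

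Counted together, 4 of the 7 genes, Tph2, Slc6a4, Slc18a2 and Maob, had all 6 Nkx2.2 arrays above all 15 others, against 89 of 18193 genes (0.489%) over the whole table. Some single arrays held the same place within their group in these genes. How often they did so over all genes was not counted. Leaving out Tph1, replicate 3 of the Nkx2.2 FGF8 group was the lowest of its group in 6 of 6 genes, and its labelling controls were lower too, at -1.12 against 1.43 and 1.25. Replicate 2 of the Nkx2.2 RA group, replicate 2 of wild type FGF8 and replicate 1 of Lmx1a day 14 were each the highest of their group in 6 of 6 genes. For Maob these orders included near ties. Replicates 2 and 1 of Nkx2.2 RA read 6.5214 and 6.5203, and replicates 1 and 3 of Lmx1a day 14 read -0.0060 and -0.0069. What part labelling had in these orders was not tested.

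Against wild type neurons given FGF8, 5 of the 7 genes rose in the Nkx2.2 line with SHH and FGF8, where 4.53% of all genes were called in either direction and 2.83% as higher. A gene was called at a Benjamini-Hochberg adjusted p under 0.05 and a log2 difference of at least 1, in limma's moderated test over all 18193 genes. Slc6a4 rose by 7.97 ± 1.22 on the log2 scale (SE; adjusted p = 0.00099), a 251-fold difference in signal. Tph2 rose by 7.19 ± 1.05 (adjusted p = 0.000685), or 146-fold. Ddc rose by 6.10 ± 0.67 (adjusted p = 5.77e-05), Maob by 5.68 ± 0.34 (adjusted p = 1.86e-07) and Slc18a2 by 4.88 ± 0.33 (adjusted p = 5.7e-07). The SD of Maob was 1.09 in the Nkx2.2 FGF8 group and 0.05 in wild type FGF8, whereas limma used 1 variance for all groups. The SE of Maob therefore understates the spread of the Nkx2.2 FGF8 arrays, here and in the other comparisons with them. The median difference of the 7 genes was 5.68, against -0.007 over all genes. By size, Slc6a4 was the gene ranked 2 and Tph2 the gene ranked 3 of all genes tested. Maoa differed by 2.10 ± 0.68 without passing (adjusted p = 0.0826), although its arrays did not overlap, and Tph1 by 0.13 ± 0.07 (adjusted p = 0.369). With only these 2 groups in the fit, Tph2 and Slc6a4 lost their call (limma adjusted p = 0.0684 and 0.0752) and Maoa gained one (adjusted p = 0.0477). Maoa was also called with the bioC split as a block, at 2.75 (adjusted p = 0.0462). Set against the 1 wild type FGF8 array on their side of the bioC split, the Nkx2.2 arrays were higher by 9.83 for Slc6a4, 9.55 for Tph2, 7.05 for Ddc, 5.71 for Maob and 5.40 for Slc18a2. That array, replicate 3, was the lowest of its group in each of these 5 genes, which enlarges the differences.

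Against wild type neurons given RA, 6 of the 7 genes rose in the Nkx2.2 line with SHH and RA, all but Tph1, on a background of 18.0% of genes called and 8.84% called higher. All arrays of this comparison lay on the same side of the bioC split. Ddc was higher by 7.27 ± 0.67 (adjusted p = 2.59e-06), from wild type arrays of -4.61 to -6.50 that were the lowest of the series. Slc6a4 rose by 7.12 ± 1.22 (adjusted p = 0.000428) and Tph2 by 7.02 ± 1.05 (adjusted p = 0.000146). Maob rose by 6.39 ± 0.34 (adjusted p = 7e-09), Slc18a2 by 5.63 ± 0.33 (adjusted p = 2.38e-08) and Maoa by 5.01 ± 0.68 (adjusted p = 6.84e-05). The median difference of the 7 genes was 6.39, against 0.01 over all genes. The labelling controls were also higher in the Nkx2.2 RA group, at 1.98, 2.03 and 0.24 against 0.71, 0.79 and -0.75, and their part was not tested.

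The Nkx2.2 line was also set against the other engineered lines, which were labelled as given SHH too. Against Lmx1a day 10, with the same factors and the same day, 6 of the 7 genes were higher in the Nkx2.2 FGF8 group, where 5.07% of all genes were called and 2.87% as higher. Slc6a4 differed by 7.36 ± 1.22 (adjusted p = 0.00231), Tph2 by 5.84 ± 1.05 (adjusted p = 0.00379), Maob by 5.65 ± 0.34 (adjusted p = 6.18e-07) and Slc18a2 by 3.53 ± 0.33 (adjusted p = 4.54e-05). Ddc differed by 2.79 ± 0.67 (adjusted p = 0.0187) and Maoa by 2.39 ± 0.68 (adjusted p = 0.0414). The 3 Lmx1a day 10 arrays are those with low labelling controls, and labelling and group cannot be told apart here. The groups also lie on opposite sides of the bioC split. With that split as a block, estimated through the other groups, the 6 differences ranged from 3.37 for Maoa to 8.27 for Slc6a4. Ddc lost its call without Lmx1a replicate 3 (adjusted p = 0.0645), without Nkx2.2 replicate 1 (0.0703) and without Nkx2.2 replicate 2 (0.081). Maoa lost its call without Lmx1a replicate 2 (0.138) or 3 (0.0955) and without Nkx2.2 replicate 1 (0.146) or 2 (0.135). With only these 2 groups fitted, the call was left for 2 of the 6 genes, Slc18a2 and Maob.

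Against the day 8 Olig2 neurons, which had the same factors, 6 of the 7 genes were higher in the Nkx2.2 RA group at day 10, where 13.1% of all genes were called and 6.19% as higher. The transporter had the largest of these differences: Slc6a4 was higher by 9.67 ± 1.22 (adjusted p = 3.95e-05). Tph2 was higher by 6.83 ± 1.05 (adjusted p = 0.000241), Maob by 6.37 ± 0.34 (adjusted p = 5.19e-09), Slc18a2 by 5.53 ± 0.33 (adjusted p = 2.35e-08), Ddc by 5.34 ± 0.67 (adjusted p = 3.89e-05) and Maoa by 3.50 ± 0.68 (adjusted p = 0.00162). Set against the 1 Olig2 array on the same side of the bioC split, the differences ran from 4.30 for Maoa to 9.93 for Slc6a4. That array, replicate 3, was the lowest of its group in 4 of 6 genes, Ddc, Slc6a4, Slc18a2 and Maoa. Over both Nkx2.2 groups against the mean of the 3 other engineered groups, the 6 genes were called as well, with 5.49% of all genes called and 2.73% as higher. Maob differed there by 6.02 ± 0.22 (adjusted p = 1.33e-10) and Ddc, high in the Lmx1a line, by 2.82 ± 0.43 (adjusted p = 0.00048). These comparisons share the Nkx2.2 arrays, so they are not independent of each other.

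**Figure D2:**
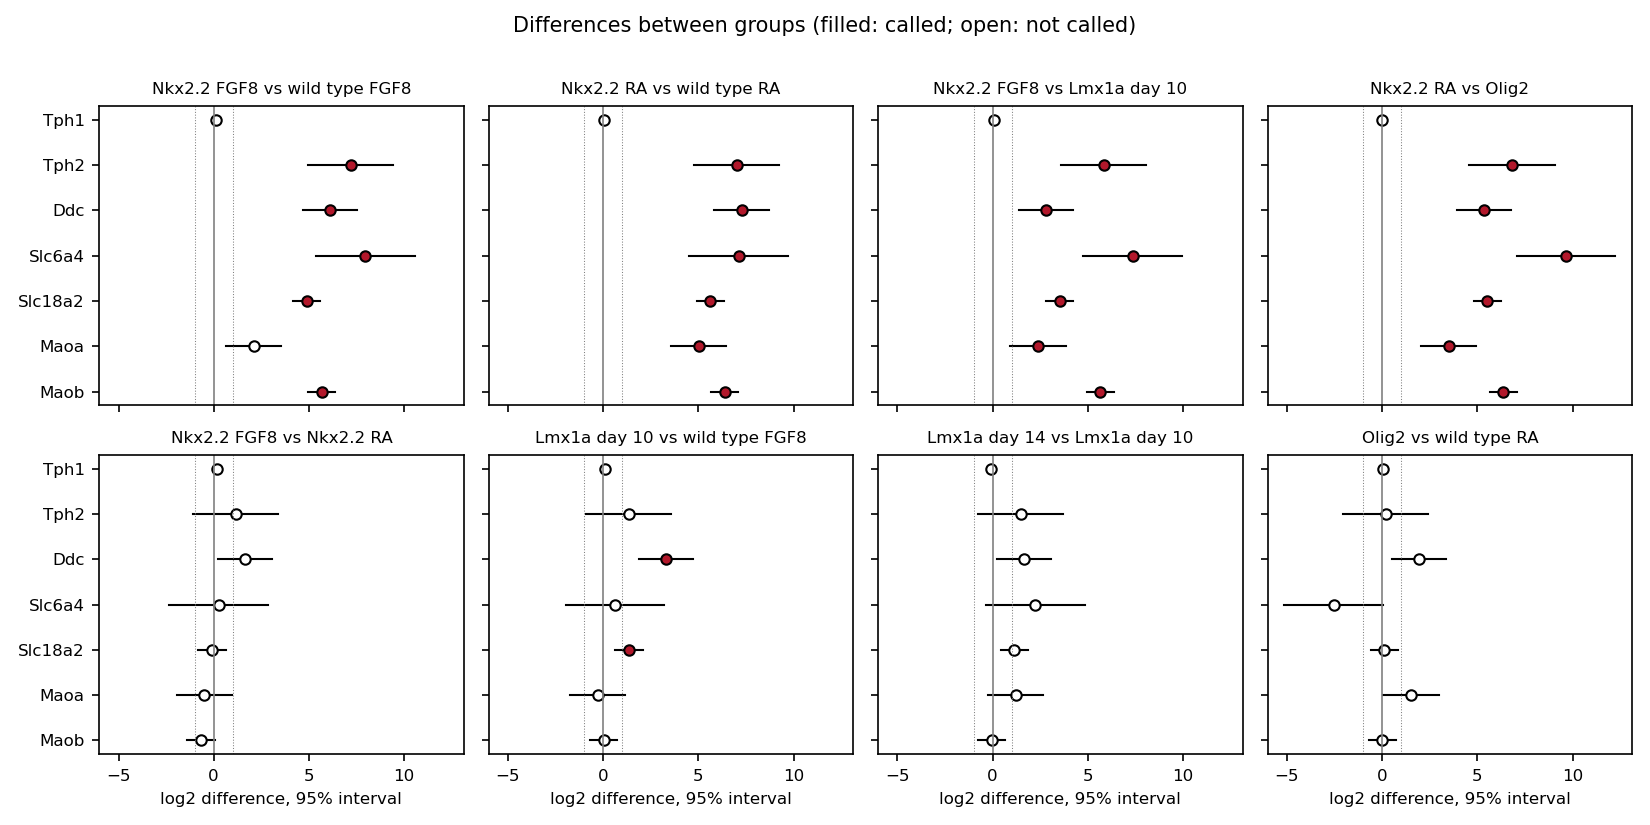
Log2 difference (x axis) with its 95% interval for each of the 7 genes (y axis) in 8 comparisons between groups, filled where called and open where not. The points of 6 genes sit far to the right of 0 where the Nkx2.2 RA line is set against another line, Maoa is open against wild type FGF8, and no point is filled between the 2 Nkx2.2 groups, between the Lmx1a days or between Olig2 and wild type RA.

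Between the 2 Nkx2.2 groups, which differ in FGF8 or RA beside SHH, none of the 7 genes was called, with 4.31% of all genes called. The intervals leave room for sizable differences. Tph2 was 1.15 ± 1.05 higher with FGF8 (95% interval -1.09 to 3.38) and Slc6a4 0.27 ± 1.22 higher (-2.32 to 2.85). The interval for Slc18a2 was narrower, from -0.80 to 0.62 around -0.09. Ddc was higher with FGF8 by 1.64 ± 0.67 with no overlap of arrays (0.21 to 3.07; adjusted p = 0.184). Maob was lower with FGF8 by -0.67 ± 0.34 (adjusted p = 0.313), and without replicate 1 of the FGF8 group this became -1.22 with an adjusted p of 0.00285, a call. Both rest on 1 variance for all groups, which understates the spread of Maob in the Nkx2.2 FGF8 group (SD 1.09). At an unadjusted p under 0.05 limma had 2 of the 7 genes, Ddc and Tph1, where 18.8% of all genes passed that threshold.

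The change of line was also compared between the 2 conditions, as the Nkx2.2 to wild type difference with FGF8 minus the same difference with RA. None of the 7 genes was called, with 4.38% of all genes called. Maoa had the lowest p of the 7, at -2.91 ± 0.96 (limma adjusted p = 0.0936), from a difference of 2.10 with FGF8 and 5.01 with RA. It was the 1 gene of 7 with an unadjusted p under 0.05, which 19.5% of all genes had. Leaving out wild type RA replicate 3 made Maoa a call at -3.60 (adjusted p = 0.0254). Leaving out Nkx2.2 FGF8 replicate 1 made Maob a call at -1.26 (adjusted p = 0.0221). That call also rests on 1 variance for all groups, which understates the spread of Maob in the Nkx2.2 FGF8 group. For Tph2 the difference of differences was 0.18 ± 1.49 and for Slc6a4 0.85 ± 1.72.

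In the Lmx1a line, 2 of the 7 genes, Ddc and Slc18a2, were higher at day 10 than in wild type FGF8 neurons, with 3.31% of all genes called and 1.96% called higher. Dopamine neurons use both genes as well, to make dopamine and to load it into vesicles. Ddc rose by 3.31 ± 0.67 (adjusted p = 0.0098) and Slc18a2 by 1.35 ± 0.33 (adjusted p = 0.0309). Tph2 differed by 1.35 ± 1.05 (adjusted p = 0.599), Slc6a4 by 0.61 ± 1.22 (adjusted p = 0.826) and Maob by 0.03 ± 0.34 (adjusted p = 0.971). The calls were not stable. Among the 5 arrays on the same side of the bioC split the differences were 2.83 for Ddc (adjusted p = 0.107) and 1.10 for Slc18a2 (adjusted p = 0.195). Without wild type replicate 1 they were 3.01 (0.054) and 1.20 (0.127), and without wild type replicate 3 they were 2.83 (0.0503) and 1.10 (0.125). Slc18a2 also lost its call without Lmx1a replicate 1 (adjusted p = 0.0947) or 3 (0.0529). The low labelling controls of the Lmx1a day 10 arrays cannot be told apart from that group.

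From day 10 to day 14 none of the 7 genes was called in the Lmx1a line, with 4.24% of all genes called. Slc18a2 differed by 1.14 ± 0.33 (adjusted p = 0.0547) and Ddc by 1.64 ± 0.67 (adjusted p = 0.159), each with no overlap of arrays. These were the 2 of 7 genes with an unadjusted p under 0.05 in limma, which 23.5% of all genes had. With the bioC split as a block Slc18a2 was called, at 1.27 (adjusted p = 0.0374). Slc6a4 differed by 2.25 ± 1.22 (adjusted p = 0.265) and Tph2 by 1.46 ± 1.05 (adjusted p = 0.378), with arrays that overlapped. Maob stayed at its median on all 6 of these arrays, between -0.044 and 0.10. Arrays of the 2 days did not overlap for Maob and Tph1 either, at differences of only -0.06 and -0.11. How many of all genes lacked overlap was not counted, in this comparison or in the others between 2 groups.

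In the Olig2 line none of the 7 genes was called against wild type RA neurons of the same day, with 10.4% of all genes called. Ddc differed by 1.93 ± 0.67 (limma adjusted p = 0.0631) and Maoa by 1.52 ± 0.68 (adjusted p = 0.159). These were the 2 of 7 genes with an unadjusted p under 0.05, which 27.7% of all genes had. Ddc became a call without Olig2 replicate 3, at 2.50 (adjusted p = 0.0269), and Maoa without wild type RA replicate 3, at 2.2 (adjusted p = 0.0359). Slc6a4 was lower by -2.55 ± 1.22 (adjusted p = 0.189), with no overlap of arrays. Ddc and Tph1 had no overlap either, Tph1 at a difference of only 0.04. Against the 3 wild type RA arrays, the 1 Olig2 array on the same side of the bioC split differed by 0.79 for Ddc, 0.71 for Maoa and -2.82 for Slc6a4. It was the lowest Olig2 array for all 3 of these genes.

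Between the wild type groups, which differ in day as well as in factor, 2 of the 7 genes were lower with RA, with 7.40% of all genes called and 3.11% called lower. Ddc differed by -2.82 ± 0.67 (adjusted p = 0.0136) and Maoa by -2.42 ± 0.68 (adjusted p = 0.0312). Neither call was stable: with the bioC split as a block the differences were -2.03 (adjusted p = 0.0948) and -1.77 (adjusted p = 0.186). Leaving out wild type RA replicate 3 ended the call for Ddc (-2.22, adjusted p = 0.0511). For Maoa the call ended without any 1 of the 3 FGF8 arrays (adjusted p = 0.0794, 0.0642 and 0.0806 for replicates 1 to 3) and without RA replicate 1 (0.138) or 2 (0.118). The other probe set of Maoa was called lower with RA, at -1.21 ± 0.25 (adjusted p = 0.00772).

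The probe sets of Ddc did not read alike. Probe set 1430591_at was near 0 on 18 arrays and read 2.98, 3.79 and 1.82 in the Nkx2.2 FGF8 group alone, whereas the chosen probe set, 1426215_at, was high in all 4 Nkx2.2 and Lmx1a groups. In a fit of every probe set, 1430591_at was higher in the Nkx2.2 FGF8 group than in wild type FGF8 by 2.86 ± 0.30 (adjusted p = 4.01e-05) and than in Nkx2.2 RA by 2.87 ± 0.30 (adjusted p = 4.39e-05). Its SD was 0.99 in the Nkx2.2 FGF8 group and at most 0.049 in any other group. limma used 1 variance for all groups, so these SEs understate the spread of the Nkx2.2 FGF8 arrays. Between Nkx2.2 RA and wild type RA it differed by 0.02 ± 0.30 (adjusted p = 0.99), where the chosen probe set differed by 7.27. Which transcripts of Ddc each probe set reads was not analysed here. The statements on Ddc in the RA condition and in the Lmx1a line therefore rest on 1 of its 2 probe sets.

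For Maoa the other probe set, 1428667_at, was also highest in the 2 Nkx2.2 groups, with less spread. It read 2.12, 1.92 and 1.18 in the Nkx2.2 FGF8 group and 1.86, 1.89 and 1.46 in the Nkx2.2 RA group, and no array outside the Nkx2.2 line exceeded 0.23. With it, Maoa was called against wild type FGF8, at 2.00 ± 0.25 (adjusted p = 0.000264), where the chosen probe set had missed the threshold. It was called against wild type RA at 3.20 ± 0.25 (adjusted p = 8.06e-07), against Lmx1a day 10 at 2.00 ± 0.25 (adjusted p = 0.00038) and against Olig2 at 2.67 ± 0.25 (adjusted p = 3.68e-06). All 6 Nkx2.2 arrays lay above the 15 others for this probe set, which the chosen one did not show.

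**Figure D3:**
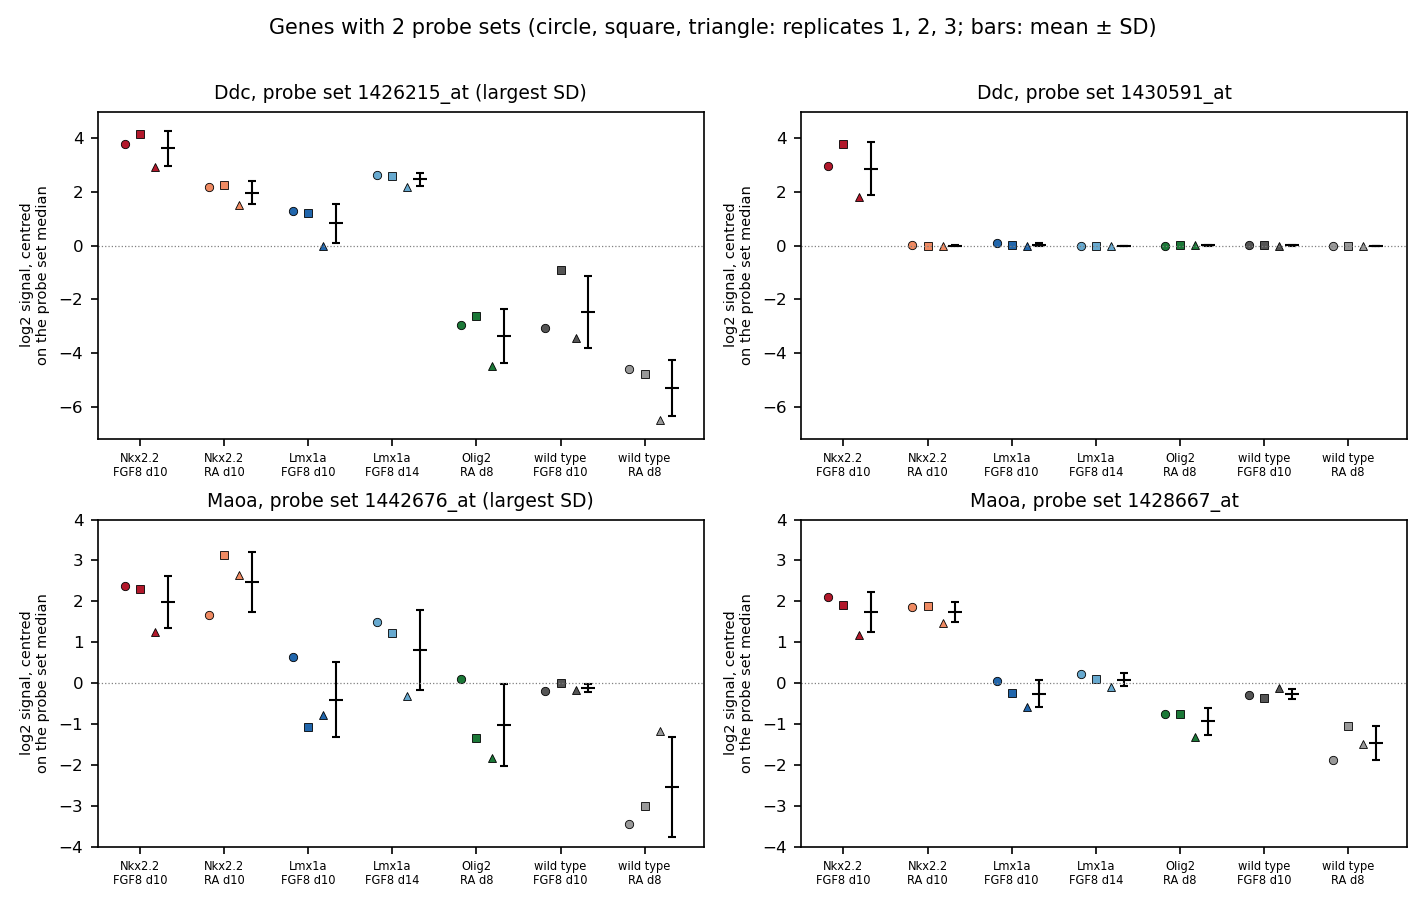
Centred log2 signal (y axis) of the 2 probe sets of Ddc and of Maoa in the 7 groups (x axis), with 1 point per array and the mean with its SD (n = 3). Outside the Nkx2.2 FGF8 group, where it is high, the probe set of Ddc on the right has group means between -0.026 and 0.031, while both probe sets of Maoa are highest in the 2 Nkx2.2 groups.

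The genes whose values followed each member most closely were ranked by Pearson's r over the 21 arrays, as a description that the groups largely set, since arrays of a group share their condition. For Tph2 these were Gch1 (r = 0.974), Slc6a4 (0.962) and Slc18a2 (0.958). For Slc6a4 they were Tph2 (0.962), Gch1 (0.962) and Gchfr (0.961), and for Slc18a2 they were Gch1 (0.973), Qpct (0.961) and Scg2 (0.961). Gch1, GTP cyclohydrolase, which starts the synthesis of the hydroxylase cofactor, thus came up for 3 members. Ddc was followed by Scg2 (0.934), Sipa1l1 (0.924) and Saraf (0.922), Maoa by Pigk (0.940), Mocs2 (0.922) and Spata24 (0.921) and Maob by Cryba2 (0.972), Tmem26 (0.960) and Esm1 (0.958). Maob and Ddc were less alike (r = 0.609) than Tph2 and Slc6a4. The 3 genes nearest to Tph1 (Zfp526, Speer4f1 and Hhatl, r = 0.945 to 0.950) follow differences of less than 0.45 log2 units.

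Among other genes of the pathway, the largest list was that for the cofactor tetrahydrobiopterin. Of the 7 tested, 3 were higher in Nkx2.2 FGF8 than in wild type FGF8 and 5 in Nkx2.2 RA than in wild type RA, against 2.83% and 8.84% of all genes; the median of the 7 was 0.84 and 1.30, against -0.007 and 0.01 over all genes. Gch1 read 6.33, 6.37 and 4.50 in the Nkx2.2 FGF8 group and 5.45, 5.51 and 4.86 in the Nkx2.2 RA group, where the wild type arrays lay between -2.31 and 0.74. It rose by 6.79 ± 0.65 with FGF8 (adjusted p = 1.38e-05) and by 7.09 ± 0.65 with RA (adjusted p = 2.34e-06). Gchfr, which encodes the feedback regulator of GTP cyclohydrolase, rose by 6.48 ± 0.79 (adjusted p = 0.000137) and 6.73 ± 0.79 (adjusted p = 2.04e-05). Pcbd1, the dehydratase that recycles the cofactor, rose by 3.10 ± 0.47 (adjusted p = 0.00087) and 2.35 ± 0.47 (adjusted p = 0.00134). Pts and Qdpr, which act in making and in recycling it, passed with RA, at 1.30 ± 0.20 (adjusted p = 0.000198) and 1.26 ± 0.16 (adjusted p = 4.19e-05), and did not pass with FGF8. Against Olig2, Gch1, Gchfr and Pts were higher and Spr, sepiapterin reductase, was lower, at -2.66 ± 0.64 (adjusted p = 0.0075).

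Genes for autoreceptors were called too. Of Htr1a, Htr1b and Htr1d, the receptors through which serotonin neurons sense their own transmitter, 2 of 3 rose in each comparison with wild type, against 2.83% of all genes with FGF8 and 8.84% with RA. Htr1a rose by 2.45 ± 0.31 with FGF8 (adjusted p = 0.000225) and 3.25 ± 0.31 with RA (adjusted p = 4.09e-06). Htr1b rose by 4.03 ± 0.45 (adjusted p = 5.9e-05) and 4.30 ± 0.45 (adjusted p = 6.95e-06). Htr1b was also higher in Lmx1a day 10 than in wild type FGF8, by 3.83 ± 0.45 (adjusted p = 0.000214), which Htr1a was not. Htr1d lay between -0.064 and 0.26 on the Nkx2.2 arrays.

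The remaining pathway lists held few calls. Of 3 other monoamine enzymes tested, Dbh, dopamine beta-hydroxylase of noradrenaline neurons, was lower in Nkx2.2 FGF8 than in wild type FGF8 by -2.91 ± 0.18 (adjusted p = 1.86e-07), and none was called with RA. Dbh was also lower in Lmx1a day 10 than in wild type FGF8, by -2.87 ± 0.18 (adjusted p = 3.66e-07). Th, tyrosine hydroxylase of dopamine synthesis, was lower in Nkx2.2 FGF8 than in Lmx1a day 10 by -4.33 ± 1.03 (adjusted p = 0.0175). Of 5 other monoamine carriers, Slc29a4, a low-affinity monoamine transporter, was lower in Nkx2.2 RA than in wild type RA by -2.87 ± 0.35 (adjusted p = 2.99e-05), and none was called with FGF8. Slc6a3, the dopamine transporter, rose from day 10 to day 14 in the Lmx1a line by 4.26 ± 0.33 (adjusted p = 1.54e-06). Of 4 genes of tryptophan uptake, Slc7a8, an amino acid carrier, rose with FGF8 by 1.01 ± 0.19 (adjusted p = 0.005). None of 3 genes for other routes of tryptophan breakdown and none of 4 for the steps after monoamine oxidase or for melatonin was called in the comparisons of the Nkx2.2 groups with wild type, Lmx1a day 10 or Olig2.

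**Figure D4:**
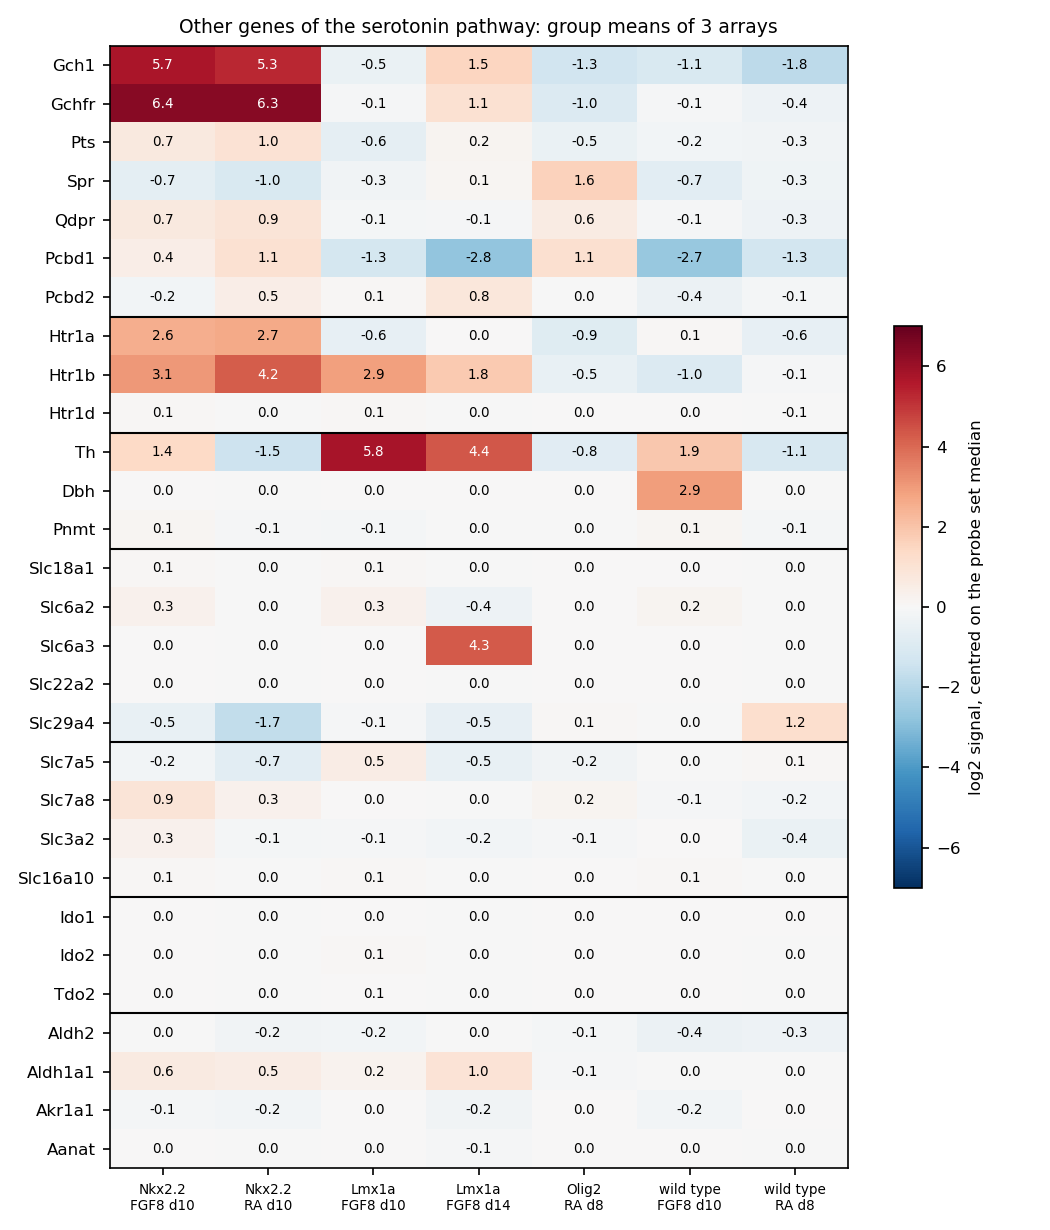
Group means (n = 3) of the centred log2 signal of 29 other genes of the pathway (rows, with lines between the lists) in the 7 groups (columns), colour and printed number giving the mean. Gch1 and Gchfr stand at 5.27 to 6.39 in the Nkx2.2 groups, Htr1a is highest there, Htr1b is high there and in the Lmx1a line, and most other rows are near 0.

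Genes of other cell types were read beside the members, above all for Maob, which astrocytes also express. Of 7 astroglial genes, 2, Aqp4 and Aldh1l1, were higher in the Nkx2.2 line in both comparisons with wild type. The share of all genes called higher was 2.83% with FGF8 and 8.84% with RA. Aqp4 and Aldh1l1 were also called higher against Lmx1a day 10 and Olig2. Aqp4 read 5.49, 3.41 and 4.42 with FGF8 and 3.46, 4.77 and 5.12 with RA, against -0.23 to 0.63 in the wild type groups. Gfap averaged 0.02 ± 0.09 and 0.01 ± 0.03 in the 2 Nkx2.2 groups, and S100b 0.01 ± 0.04 and 0.01 ± 0.03. Slc1a3, Gja1 and Fabp7 were not called against wild type either. They differed by 2.53, -0.78 and 0.54 with FGF8 and by 1.27, 2.19 and 1.14 with RA. The mean of the 7 genes ran from -0.13 to 1.09 in Nkx2.2 FGF8, from 1.35 to 1.55 in Nkx2.2 RA, from -1.70 to -0.37 in wild type FGF8 and from -0.81 to 0.55 in wild type RA. In Lmx1a day 14 this mean ran from 0.27 to 0.89. Over both Nkx2.2 groups against the other engineered groups, Aqp4 was higher by 4.15 ± 0.28 (adjusted p = 2.33e-07) and Aldh1l1 by 2.66 ± 0.42 (adjusted p = 0.000598). The other genes of the list were not called there. The part of such cells in the Maob result was not tested. Of 8 endothelial and mesenchymal genes, Dcn was higher than in wild type with FGF8, by 4.22 ± 0.93 (adjusted p = 0.0123), and none was called with RA. The mean of these 8 genes ran from -0.02 to 0.98 in Nkx2.2 FGF8 and from 0.06 to 1.04 in Nkx2.2 RA, against -0.86 to 0.28 and -0.21 to 2.24 in the wild type groups. Against Lmx1a day 10, Dcn was higher by 4.64 ± 0.93 (adjusted p = 0.00712) and Kdr lower by -1.40 ± 0.40 (adjusted p = 0.0421). Against Olig2, Dcn was higher by 3.36 ± 0.93 (adjusted p = 0.0171) and Col1a2 by 3.90 ± 1.22 (adjusted p = 0.033). Over both Nkx2.2 groups against the other engineered groups 4 of the 8 were higher, Dcn, Col1a2, Col3a1 and Pdgfrb, by 1.38 to 3.68, against 2.73% of all genes. Col3a1 and Pdgfrb were close to the threshold (limma adjusted p = 0.0463 and 0.0498). The part of such cells in the results was not tested. Noradrenaline neurons, which also use Ddc and Slc18a2, were read through 4 genes. Their mean was 3.22 in wild type FGF8 against 0.41 in Nkx2.2 FGF8, and 1.73 in wild type RA against -0.28 in Nkx2.2 RA. Of the 4, Dbh and Tfap2b were lower in the Nkx2.2 line with FGF8 and Tfap2b with RA, Tfap2b by -8.36 ± 0.56 (adjusted p = 5.33e-07) and -6.86 ± 0.56 (adjusted p = 7.34e-07). The other lines shared this. Against wild type FGF8, Lmx1a day 10 was lower for Dbh, by -2.87 ± 0.18 (adjusted p = 3.66e-07), and for Tfap2b, by -8.61 ± 0.56 (adjusted p = 5.82e-07). Against wild type RA, Olig2 was lower for Phox2a, by -1.36 ± 0.43 (adjusted p = 0.0387), and for Tfap2b, by -5.65 ± 0.56 (adjusted p = 8.74e-06). The part of noradrenaline neurons in the differences of Ddc and Slc18a2 from wild type was not tested. Of 5 general neuronal genes none was called against wild type with FGF8, and 2, Tubb3 and Rbfox3, were lower with RA. Over all genes, 4.53% were called in either direction with FGF8 and 18.0% with RA. Of 4 genes of stem and dividing cells none was called in either comparison.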

How the data were processed

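RNA of purified neurons was hybridized to Affymetrix mouse arrays, 21 of which were used here. The deposited values are log2 signals made with GCRMA, per the submitters' processing notes, with the version not given in the sources used here. Each probe set had been centred on its median over 27 arrays, of which 6 were not used here, so absolute levels and detection cannot be read. Probe sets that name 1 gene (34945 of 45101) were reduced to the one with the largest SD per gene, leaving 18193 genes. limma 3.58.1 in R 4.3.3 was fitted with 1 mean per group over all 21 arrays, with Benjamini-Hochberg adjustment within each of 11 comparisons. The fit was tested on simulated data in which each gene had the same variance in all groups. That test could not show what unequal variances do. Precision is limited by 3 arrays per group. The text names every member, the 3 genes most like each, and the pathway and marker genes that were called or define a list. Members and lists were chosen with earlier results of these data known. Alternatives covered probe set choice, centring, filters, weights, blocks and left-out arrays. Some genes of the lists were not analysed here.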

Additional observations from a re-analysis of the deposited data

Results flagged for a closer look

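The Nkx2.2 to wild type difference with FGF8 was tested against the same difference with RA, and 3 probe sets or genes of the pathway differed between the conditions in limma. For Ddc probe set 1430591_at the difference of differences was 2.84 ± 0.42 (adjusted p = 0.00198), where the chosen probe set of Ddc gave -1.17 ± 0.95 (adjusted p = 0.627). The SD of 1430591_at was 0.99 in the Nkx2.2 FGF8 group and far smaller elsewhere, and the SE rests on 1 variance for all groups. For Dbh the difference of differences was -2.92 ± 0.25 (adjusted p = 6.52e-06), from -2.91 with FGF8 and 0.02 with RA. It was not particular to the Nkx2.2 line, since Dbh stood apart in wild type FGF8. Dbh was lower than there in Lmx1a day 10, by -2.87 ± 0.18 (adjusted p = 3.66e-07), and in wild type RA, by -2.96 ± 0.18 (adjusted p = 6.56e-08). Between Nkx2.2 FGF8 and Lmx1a day 10 it differed by -0.03 ± 0.18. For Slc29a4 it was 2.38 ± 0.50 (adjusted p = 0.0133), from -0.49 with FGF8 and -2.87 with RA.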

How the results depend on the processing

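Of 77 values, 7 genes in 11 comparisons, 33 were called, and 23 of these kept their direction and call under every setting except the other probe sets, a check added after the data were seen. The sign changed beside a call for 2 values, both with the other probe set of Ddc. For the difference between conditions it gave 2.84, called, where the chosen probe set gave -1.17, not called. For Nkx2.2 RA against Olig2 it gave -0.017 ± 0.30, not called, where the chosen probe set gave 5.34, called. In neither case were both probe sets called. Same-numbered arrays did not deviate together on average (mean r = 0.006 over 63 pairs, -0.003 over 126 pairs of different numbers). Single same-numbered pairs ran from -0.35 to 0.39, so a mean cannot settle whether some arrays were paired. The main fit used no pairing. A replicate block gave 1 called gene each between the Nkx2.2 groups, for the Lmx1a days and for Olig2 against wild type RA. The bioC split as a block gave 1 for Lmx1a day 10 against wild type, 1 (Slc18a2) for the Lmx1a days and 0 between the wild types. Among the arrays of 1 side of that split the count was 0 for Lmx1a day 10 against wild type and 0 between the wild types. With only the compared arrays it was 2 for Nkx2.2 FGF8 against Lmx1a day 10, 0 for Lmx1a day 10 against wild type, 1 for the Lmx1a days and 0 between the wild types. Without 3 arrays that stand apart (Lmx1a day 10 replicate 1, Nkx2.2 FGF8 replicate 1 and wild type FGF8 replicate 2) it was 1 between the Nkx2.2 groups, 1 for the difference between conditions, 1 for the Lmx1a days and 0 between the wild types. The mean of probe sets gave 1 between the Nkx2.2 groups, median centring gave 1 for the Lmx1a days, and a range filter gave 1 there and 1 for Olig2. Array weights gave 2 between the Nkx2.2 groups, 2 for the difference between conditions, 4 for Lmx1a day 10, 3 for the Lmx1a days and 3 for Olig2. At an adjusted p under 0.01 the count was 4 for Nkx2.2 FGF8 against Lmx1a day 10, 1 for Lmx1a day 10 against wild type and 0 between the wild types. For Nkx2.2 FGF8 against wild type the count ran from 4 to 6 over these settings. Leaving out 1 array at a time gave counts of 0 to 1 between the Nkx2.2 groups, 0 to 1 for the difference between conditions, 4 to 6 for Nkx2.2 FGF8 against Lmx1a day 10, 0 to 2 for Lmx1a day 10 against wild type, 0 to 1 for Olig2 and 1 to 1 between the wild types. In limma each gene has 1 variance for all groups, while the SD of Maob ran up to 1.09. Called genes over the whole table ranged from 344 to 2389 for Nkx2.2 FGF8 against wild type (825 as reported), 2312 to 4058 for RA (3275), 273 to 1851 between the Nkx2.2 groups (785), 235 to 3448 for the difference between conditions (796), 124 to 2936 against Lmx1a day 10 (923), 912 to 3245 against Olig2 (2388), 537 to 1888 against all engineered groups (998), 168 to 2069 for Lmx1a day 10 (603), 400 to 2299 for the Lmx1a days (772), 489 to 2668 for Olig2 (1884) and 624 to 2663 between the wild types (1346).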
